A study of Mus musculus with 8 samples.

Results

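The genes described here process peptides for major histocompatibility complex (MHC) class I. They were named by symbol as B2m, Tap1, Tap2, Tapbp, Psmb8, Psmb9, Psmb10, Nlrc5, Erap1 and H2-T23, and a row of the array table was taken where its RefSeq identifier mapped to the symbol. Of these 10 genes, 9 had a row, none had more than 1, and no row matched H2-T23. The table held 24625 rows in all.

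Expression was measured in neutrophils from the lungs of wild type (WT) C57BL/6J mice aged 6 to 12 weeks per the labels. The 4 SP samples came from mice given Streptococcus pneumoniae, a bacterium that causes pneumonia, by intratracheal instillation, with 2.3 µl for each g of mouse delivered to the left lung. The 4 PBS samples came from mice given the same volume of phosphate-buffered saline. Cells of both groups were collected at 24 h and drawn from lung digests with beads against Ly6G, a neutrophil surface protein, and each sample had its own Affymetrix Mouse Gene 1.1 ST array. The study describes each sample as taken from 1 mouse, so p-values measure the spread between mice. The study's methods describe a purity check by stained cytospins for the pneumonia samples.

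Every nucleated cell displays short peptides from its own proteins on class I molecules, where CD8 T cells can read them. Peptides are cut by the proteasome, whose constitutive catalytic subunits can be replaced by the inducible subunits encoded by Psmb8, Psmb9 and Psmb10 to form the immunoproteasome. The Tap1 and Tap2 proteins pump the peptides into the endoplasmic reticulum (ER), where Erap1 trims them, tapasin (Tapbp) helps to load them, and a heavy chain pairs with β2-microglobulin (B2m). Nlrc5 is a transactivator of class I genes, and interferons are known to induce much of the pathway.

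Promoter sequence is shown for Psmb9 and Tap1 because they are transcribed in opposite directions from 1 short stretch, and for B2m because it changed least. The sequences are RefSeq's (build GRCm38.p6), cover bases before the start site only, and run 5′ to 3′ on the plus strand. Capitals mark matches to motifs searched on both strands. These were the interferon-stimulated response element bound by interferon regulatory factors (by name), an NF-kB site (GGGNNTTCC), an X2 or cyclic AMP response element (TGACGNNA) and a Y box (CCAAT). The stretch between Psmb9 and Tap1 is chr17:34187331-34187555 (225 bases), with Psmb9 transcribed leftward from beside its first base and Tap1 rightward from beside its last. The B2m stretch is chr2:122147437-122147686 (250 bases).
Psmb9 to Tap1: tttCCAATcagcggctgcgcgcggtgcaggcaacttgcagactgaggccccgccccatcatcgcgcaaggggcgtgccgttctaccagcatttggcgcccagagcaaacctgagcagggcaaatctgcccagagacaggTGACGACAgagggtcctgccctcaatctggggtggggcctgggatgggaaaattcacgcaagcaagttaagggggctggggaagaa
B2m: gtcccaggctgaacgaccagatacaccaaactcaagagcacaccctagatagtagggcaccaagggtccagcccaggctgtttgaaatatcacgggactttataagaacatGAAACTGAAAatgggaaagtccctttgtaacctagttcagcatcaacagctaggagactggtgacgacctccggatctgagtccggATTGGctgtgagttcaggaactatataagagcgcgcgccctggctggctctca

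Motifs were counted in windows of 300 bases, 250 before and 50 after the start, and 7 of the 9 measured genes had such a window (not Tap2 and Nlrc5). The interferon-stimulated response element matched in B2m (139 bases before the start) and Erap1 (across the start), so in 2 of 7 windows, against 3.44% of 32851 promoters. The same X2 type site lay in the windows of Tap1 and Psmb9, which share 275 bases. That motif was in 6.61% of all promoters. A Y box was found in B2m, Psmb9, Tap1 and Tapbp (4 of 7 windows, and 37.4% of all). The Psmb9 and Tap1 matches are the same site in the shared bases, counted for both genes. The NF-kB letters GGGNNTTCC were in none of the 7 (5.82% of all), and NF-kB sites of other lengths or letters were not searched. A match describes the letters and is not evidence of a bound site.

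All 9 measured genes were expressed at higher levels in SP than in PBS neutrophils. The difference was called by limma at an adjusted p of at most 0.05 for 9 of 9, where 44.1% of all rows were called in either direction and 21.5% were called higher. None of the 9 was lower, whereas 22.6% of all rows were called lower. The difference was at least 2-fold for 8 of 9, compared with 6.37% of all rows in that direction and 11.3% in the other. For all 9 genes the lowest SP array lay above the highest PBS array, as it did in 27.2% of all rows, while the reverse held in 21.8%. The median difference was 2.26 on the log2 scale for the 9 genes and 0.10 for all rows. Neither scaling alternative turned the direction of any of the 9, although SP array medians were lower by 0.28 and centring each array on its median raised the median of all rows to 0.38. In bulk RNA, a change in the share of expressing cells and a change in RNA per cell cannot be told apart.

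**Figure D1:**
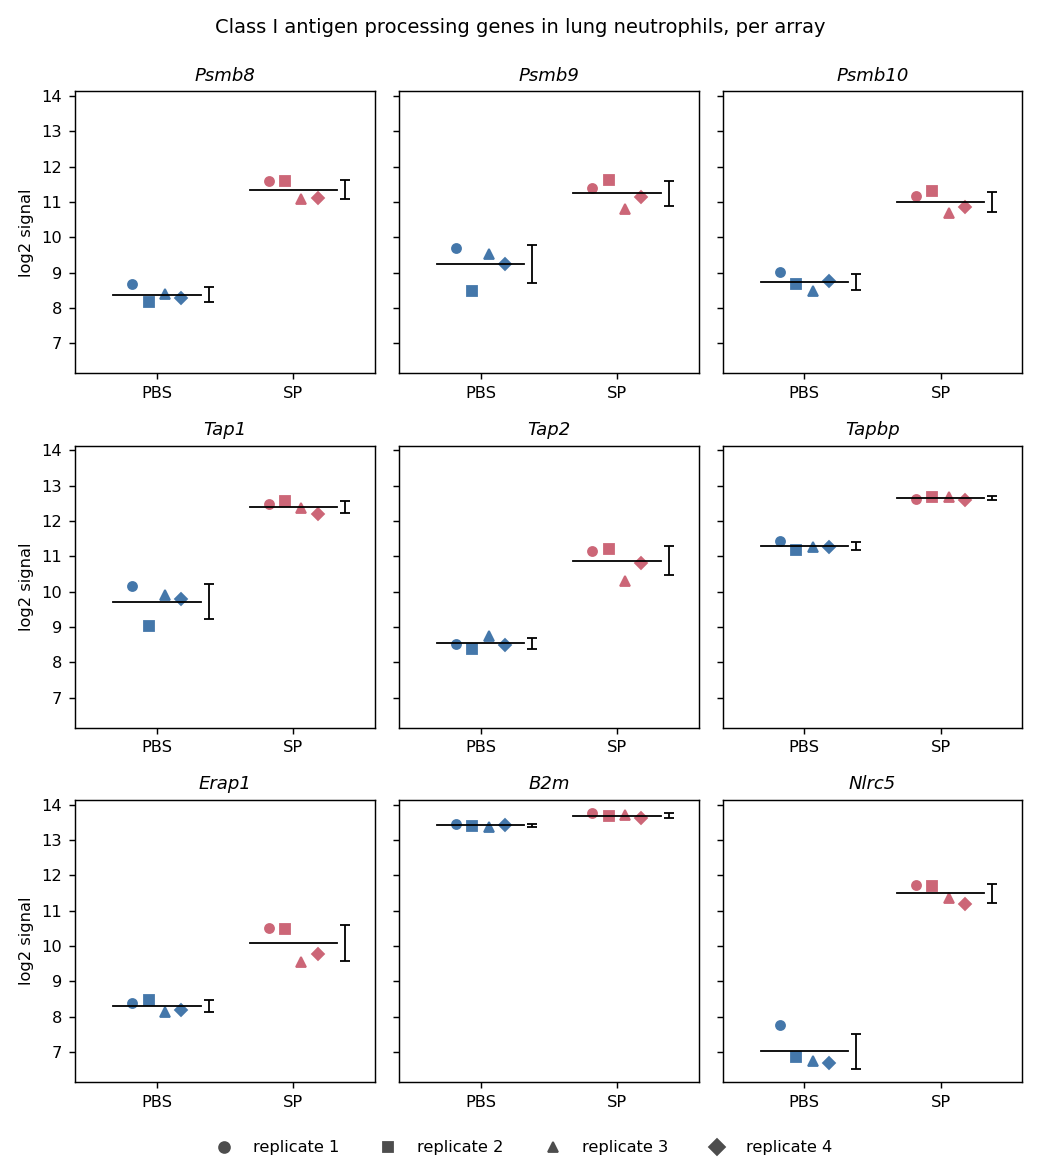
Log2 signal (vertical axis) of each of the 9 measured genes on the 4 PBS and 4 SP arrays, with replicate numbers as symbols, the group mean as a line and the SD as a bar beside it. SP points lie above all PBS points in each panel, by the widest margin for Nlrc5 and by the narrowest for B2m.

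The 3 inducible proteasome subunits rose 4.01-fold or more. Psmb8 (LMP7, NM_010724) had log2 signals of 8.68, 8.18, 8.39 and 8.28 on PBS arrays 1 to 4 and of 11.59, 11.58, 11.10 and 11.12 on SP arrays 1 to 4. It was 7.83-fold higher in SP (log2 difference 2.97, SE 0.16, adjusted p = 7.82e-06, limma), with at least 2.42 between any SP and any PBS array. Psmb10 (MECL-1, NM_013640) measured 9.03, 8.69, 8.48 and 8.76 in PBS and 11.16, 11.31, 10.69 and 10.85 in SP. The groups were well apart, and the difference was 2.26 (SE 0.17, 4.80-fold, adjusted p = 2.79e-05). Psmb9 (LMP2, NM_013585) measured 9.69, 8.49, 9.54 and 9.24 in PBS and 11.40, 11.64, 10.80 and 11.14 in SP. PBS replicate 2 was the low array, and the spread within groups was the widest of the 3 subunits. The difference was 2.01 (SE 0.28, 4.01-fold, adjusted p = 0.000719).

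The constitutive subunits that these replace changed less. Psmb5, the counterpart of Psmb8, measured 11.34 to 11.68 in PBS and 11.65 to 11.77 in SP and did not pass the test (difference 0.20, adjusted p = 0.0894). Psmb6, the counterpart of Psmb9, was higher in SP by 0.54 (adjusted p = 0.00888), and Psmb7, the counterpart of Psmb10, by 0.32 (adjusted p = 0.0104). After another quantile normalization neither passed, at differences of 0.38 and 0.19, and Psmb5 was at -0.03.

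Within each array, the log2 value of the inducible subunit minus that of its counterpart was compared between groups, which does not depend on array centring. For Psmb8 minus Psmb5 it was -2.89, -3.33, -2.95 and -3.40 in PBS and -0.13, -0.16, -0.55 and -0.65 in SP. The groups did not overlap, and the ratio rose 6.82-fold (log2 change 2.77, SE 0.19). For Psmb10 minus Psmb7 the change was 1.95 (SE 0.18, 3.85-fold), and for Psmb9 minus Psmb6 it was 1.46 (SE 0.40, 2.76-fold), again with no overlap. The two-sided exact permutation test gave p = 0.0286 for each of the 3 pairs, the smallest value that 70 arrangements allow (0.0358 adjusted over 5 pairs). Absolute offsets within a pair reflect the probes of different genes and are not levels of 1 gene relative to another.

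**Figure D2:**
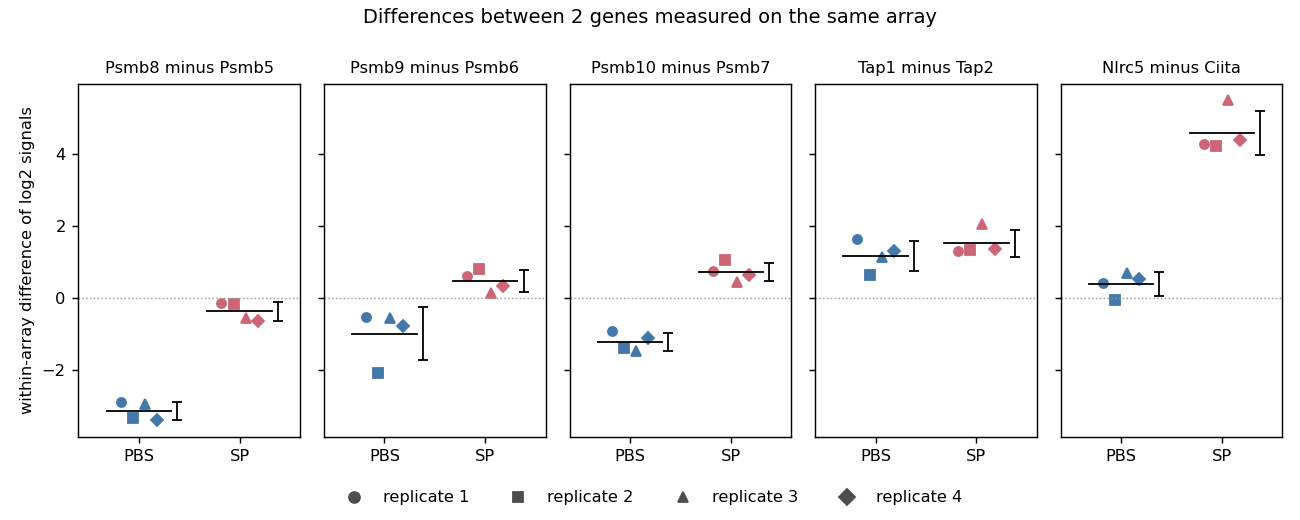
Within-array difference of 2 genes' log2 signals (vertical axis) on PBS and SP arrays for 5 pairs, with replicate numbers as symbols, group means as lines and SDs as bars. Groups are apart for the 3 proteasome pairs and for Nlrc5 minus Ciita, and they overlap for Tap1 minus Tap2.

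Of 8 further proteasome genes on the list (the 3 counterparts, activator subunits and an assembly factor), 4 were called higher and 4 were not called, with a median difference of 0.32. Psme1 and Psme2 encode the PA28 cap, which opens the proteasome and is known as interferon-inducible. Psme2 rose from 10.36–10.79 in PBS to 12.27–12.51 in SP, a 3.44-fold difference (1.78, SE 0.11). Psme1 rose from 9.89–10.26 to 11.08–11.44, a 2.25-fold difference (1.17, SE 0.12). Psme3 and Psme4, which encode other activators, differed by -0.11 and 0.02 and were not called, nor was the assembly factor Pomp (0.32, adjusted p = 0.067).

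Both subunits of the peptide transporter were higher in SP. Tap1 (NM_001161730) measured 10.17, 9.02, 9.90 and 9.81 in PBS and 12.47, 12.55, 12.37 and 12.19 in SP. PBS replicate 2 was again the low array, and the SP arrays lay within 0.37 of each other. The difference was 2.67 (SE 0.23, 6.38-fold, adjusted p = 5.83e-05). Tap2 (NM_011530) measured 8.53, 8.38, 8.76 and 8.50 in PBS and 11.16, 11.22, 10.31 and 10.83 in SP. Its spread was wider in SP than in PBS, with SP replicate 3 lowest, and the difference was 2.34 (SE 0.20, 5.05-fold, adjusted p = 5.7e-05).

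The 2 subunits were not shown to change by different amounts. Tap1 minus Tap2 was 1.64, 0.64, 1.14 and 1.31 in PBS and 1.31, 1.34, 2.06 and 1.36 in SP. These ranges overlapped, and the change of 0.34 (SE 0.28) had p = 0.314 by the exact permutation test. Without PBS replicate 1 the change was 0.49 with an unadjusted p = 0.0286, the smallest that 35 arrangements allow.

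Tapasin, which holds empty class I molecules at the transporter, was among the most evenly measured genes. Tapbp (NM_001025313) measured 11.44, 11.18, 11.27 and 11.27 in PBS and 12.62, 12.69, 12.68 and 12.59 in SP. The SP arrays agreed within 0.10, and the difference was 1.36 (SE 0.08, 2.56-fold, adjusted p = 1.02e-05). Tapbpl encodes the tapasin-related protein TAPBPR, a peptide editor. Its signal was 8.05, 7.76, 7.94 and 7.81 in PBS and 10.85, 10.99, 9.96 and 10.32 in SP, a 6.24-fold difference (2.64, SE 0.22).

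The general folding machinery of the ER did not rise with them. Of 9 listed loading and folding genes, Tapbpl was the 1 called higher, 4 were called lower and 4 were not called, with a median difference of -0.38. Those called lower were Calr (calreticulin, -0.38), Pdia3 (ERp57, -0.55), Ganab (glucosidase II, -0.73) and the disulfide isomerase Pdia4 (-1.17). Calr and Pdia3 are both part of the peptide loading complex. The groups of Calr overlapped, and its adjusted p by limma was 0.0425. Pdia4 was the 1 with a difference of at least 2-fold, with SP arrays at 9.79, 9.88, 8.62 and 10.37 against 10.74 to 10.93 in PBS. Without SP replicate 3 its difference was -0.82. Calnexin (Canx, -0.14) and BiP (Hspa5, 0.21) were not called.

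Erap1 (NM_030711), which trims peptides to length inside the ER, measured 8.37, 8.48, 8.12 and 8.19 in PBS and 10.52, 10.49, 9.53 and 9.77 in SP. SP replicates 1 and 2 were higher than replicates 3 and 4, and all were above PBS. The difference was 1.79 (SE 0.23, 3.45-fold, adjusted p = 0.000488). Of 8 listed cytosolic and other peptidases, 6 had a row. Npepps (puromycin-sensitive aminopeptidase) was called higher at 0.69, Thop1 (thimet oligopeptidase) was called lower at -0.79, and neither reached 2-fold. The other 4, Lap3, Tpp2, Lnpep and Blmh, were not called, and the median of the 6 was -0.17.

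B2m (NM_009735), the light chain shared by class I molecules, changed least. It measured 13.46, 13.41, 13.37 and 13.43 in PBS and 13.77, 13.68, 13.71 and 13.61 in SP. The groups were separated by 0.16, and the difference was 0.27 (SE 0.07, 1.21-fold, adjusted p = 0.0112). Relative to the median of all rows the difference was 0.17. The brightest row of each array lay between 13.95 and 14.45, so B2m was near the top of the scale, and whether this reduced its difference was not tested.

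Class I heavy chains changed unequally. Of 26 listed genes 19 had a row, of which 12 were called higher, 1 lower and 6 not, with a median difference of 0.49. Of the 19, 7 were at least 2-fold higher, all from the nonclassical groups. These were H2-T10 (2.63, 6.17-fold), H2-Q4 (2.31, 4.96-fold), H2-T22 (2.16, 4.46-fold), H2-M3 (2.11, 4.30-fold), H2-Q5 (1.74), H2-T24 (1.49) and H2-Q8 (1.48). H2-M3, which presents formylated bacterial and mitochondrial peptides, measured 7.03 to 7.68 in PBS and 9.11 to 9.60 in SP. H2-T22 measured 8.88 to 9.78 in PBS and 11.47 to 11.83 in SP.

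The classical heavy chains, named after their values were seen, differed less than the 7 that were at least 2-fold higher. H2-K1 measured 11.76, 11.59, 11.58 and 11.56 in PBS and 12.77, 12.63, 12.55 and 12.50 in SP, a difference of 0.99 (SE 0.09, adjusted p = 6.05e-05). That is above the list median of 0.49, and H2-K1 passed 2-fold with array weights (1.06) and with arrays centred on their median (1.27). H2-D1 measured 12.42 to 12.67 in PBS and 12.74 to 12.88 in SP, a difference of 0.26 (adjusted p = 0.0286). The H2-D1 call was lost after another quantile normalization (0.08, adjusted p = 0.338), with the replicate block (adjusted p = 0.0589) and with dim rows left out (0.0753). It was also lost when PBS replicate 1, 2 or 4 or SP replicate 1 or 2 was left out. Heavy chain genes are near-identical in long stretches, so probes may take signal from a relative, and H2-T10 and H2-Q5 are transcribed pseudogenes in the symbol table.

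Mr1 went the other way. It encodes a class I-like molecule that shows vitamin B metabolites to MAIT cells, and it measured 9.84, 10.05, 9.60 and 9.83 in PBS and 8.11, 8.30, 7.34 and 8.17 in SP. No SP array reached the PBS range, and the level was 3.61-fold lower in SP (log2 difference -1.85, SE 0.21, adjusted p = 0.000231). Cd1d1, which presents lipids, was not called (0.42).

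**Figure D3:**
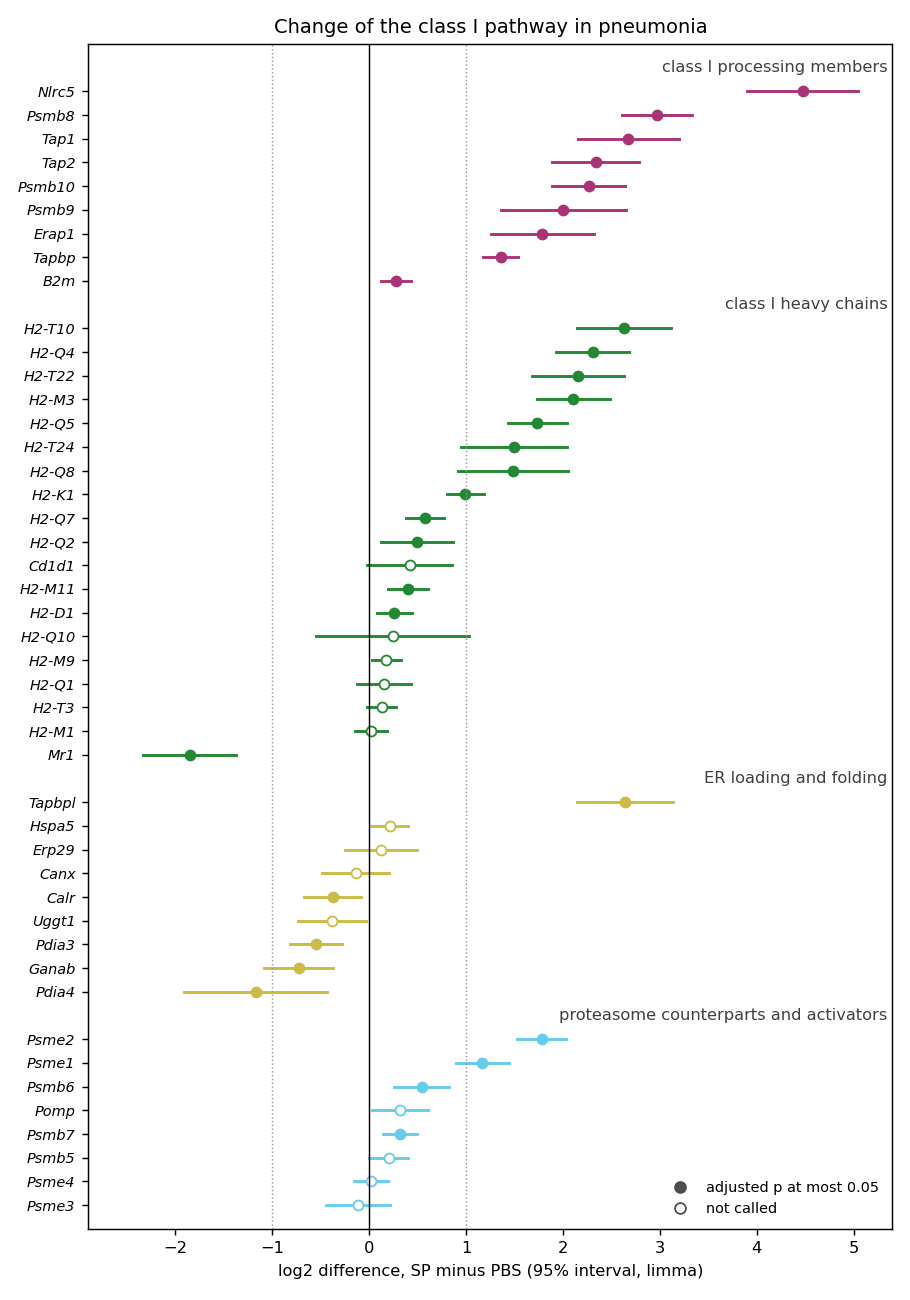
Log2 difference between SP and PBS (horizontal axis, points) with limma's 95% intervals (lines) for the 9 measured genes, class I heavy chains, ER loading and folding genes, and proteasome counterparts and activators, with filled points where the adjusted p was at most 0.05 and dotted lines at 2-fold. Nlrc5 stands highest at 4.47, B2m is lowest of the 9 at 0.27, and Mr1 lies lowest of the genes shown at -1.85.

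Nlrc5 (NM_001033207) had the largest difference of the 9. It measured 7.76, 6.86, 6.75 and 6.69 in PBS and 11.73, 11.70, 11.35 and 11.18 in SP. PBS replicate 1 was higher than the other PBS arrays, and 3.42 still lay between it and the lowest SP array. The difference was 4.47 (SE 0.25, 22.2-fold, adjusted p = 9.29e-06).

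Its class II relative did not show such a change. Ciita, the transactivator of MHC class II genes, measured 7.33, 6.92, 6.05 and 6.17 in PBS and 7.45, 7.47, 5.84 and 6.80 in SP. The groups overlapped, and the difference of 0.27 was not called (adjusted p = 0.596). Nlrc5 minus Ciita was 0.43, -0.06, 0.70 and 0.52 in PBS and 4.28, 4.23, 5.51 and 4.38 in SP. The groups did not overlap, and the ratio rose 18.4-fold (log2 change 4.20, SE 0.35, p = 0.0286 by the exact permutation test, 0.0358 adjusted over 5 pairs).

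Of 16 listed regulators of class I genes, 15 had a row, and 9 were called higher (6 of them at least 2-fold), 1 lower and 5 not, with a median difference of 0.77. Interferon signalling genes were among those at least 2-fold higher. Stat2 rose from 8.48–9.36 in PBS to 11.65–11.89 in SP, a 6.93-fold difference (2.79). Irf1 measured 10.92, 10.10, 11.04 and 10.84 in PBS and 12.55, 12.57, 12.35 and 12.26 in SP. PBS replicate 2 was its lowest array, as it was for Tap1 and Psmb9. Irf1 rose by 1.71 (3.27-fold), Irf9 by 1.33 (2.52-fold) and the NF-kB subunit gene Nfkb1 by 1.45 (2.72-fold).

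Irf8 was called at 1.25 (adjusted p = 0.0218), but its groups overlapped, and the call was lost by the methods' t-test (adjusted p = 0.0533). It was also lost when PBS replicate 3 or 4 or SP replicate 1 or 2 was left out. Of the partners through which Nlrc5 reaches class I promoters, Rfxank was called lower at -0.42, and the NF-Y subunit gene Nfyb was called higher at 0.84 (adjusted p = 0.0135), with overlapping groups. Rfxap (-0.16), Nfya (0.37), Nfyc (0.04) and Creb1 (0.10) were not called, and Rfx5 had no row.

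In order of difference, the 9 genes were Nlrc5, Psmb8, Tap1, Tap2, Psmb10, Psmb9, Erap1, Tapbp and B2m. The 95% interval of Nlrc5 (3.90 to 5.04) lay above that of Psmb8 (2.60 to 3.33), and that of B2m (0.12 to 0.43) lay below that of Tapbp (1.18 to 1.53). All other neighbours in this order had overlapping intervals. These intervals belong to single genes, and the differences between genes were tested only for the 5 pairs above.

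The genes also shared a pattern among replicates. Of the 4 PBS arrays, replicate 1 was highest for 7 of 9 genes, whereas it was highest for 17.3% of all rows. Of the SP arrays, replicates 1 and 2 held the highest value for 4 and 5 genes and replicates 3 and 4 the lowest value for 5 and 4. Over all rows, replicates 1 and 2 were highest in 13.3% and 21.8% and replicates 3 and 4 lowest in 33.9% and 27.0%. As the median over the 9 genes of the log2 value minus the PBS mean, the SP arrays stood at 2.42, 2.57, 1.77 and 2.11 and the PBS arrays at 0.29, -0.16, -0.02 and -0.02. PBS replicate 1 also had the highest mean of PBS arrays on 7 of the 12 marker lists of other cells, namely alveolar macrophage (9.20), B cell (9.07), fibroblast (9.06), monocyte and interstitial macrophage (8.73), dendritic cell (6.48), T cell (6.04) and NK cell (5.49). The SP arrays were split likewise on the lymphocyte lists, with replicates 1 and 2 above replicates 3 and 4. Their list means were 6.39, 6.55, 5.57 and 5.51 for T cells, 5.82, 5.84, 5.20 and 5.16 for NK cells, and 6.97, 7.37, 6.03 and 6.08 for B cells. The part of these cells in the replicate pattern of the class I genes was not tested.

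The genes with profiles nearest to this median profile, by root mean square difference over the 8 arrays among 19827 other genes with a symbol, were Ncapg2 (0.117), Tmem229b (0.131), Mitd1 (0.142), Tcirg1 (0.144) and Atp6v1c1 (0.153). Ncapg2 encodes a condensin subunit, and Tcirg1 and Atp6v1c1 encode subunits of the vacuolar proton pump. Their own differences were 2.30, 2.17, 2.35, 2.13 and 2.08. All 5 had their lowest SP value in replicate 3, as 33.9% of all rows did. Both their differences and this low array follow from the choice by nearness to the median profile, whose SP values are lowest there.

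Psmb9, Tap1, Psmb8 and Tap2 are 4 consecutive protein-coding genes on mouse chromosome 17, inside the class II region. Of the 8 protein-coding genes on each side, 15 of 16 had a row, and 2 were at least 2-fold higher, 1 at least 2-fold lower, 2 called higher under 2-fold and 10 not called. H2-Ob, the gene next to Tap2, was lower by a log2 difference of -1.65 (adjusted p = 0.00463). It encodes a chain of the class II modulator H2-O. Brd2, a chromatin reader gene, was higher by 1.41 and the butyrophilin-like gene Btnl2 by 1.79.

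The classical class II genes were not called. H2-Ab1 differed by -0.44 (adjusted p = 0.37), H2-Aa by -0.37 (0.366) and H2-Eb1 by -0.28 (0.505). Their SP arrays had SDs of 0.70 to 0.86, above those of any of the 9 class I processing genes. H2-Oa, at 0.93, was not called (adjusted p = 0.11), and it passed with array weights (1.31), with arrays centred on their median (1.21), after another quantile normalization (1.19) and without SP replicate 3 (1.24).

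**Figure D4:**
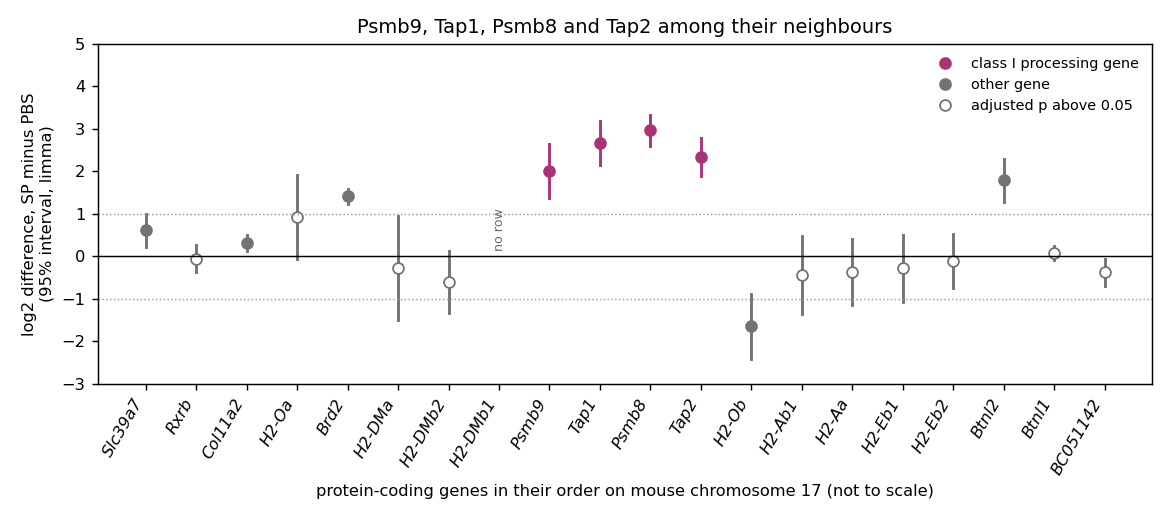
Log2 difference between SP and PBS (vertical axis) with limma's 95% intervals for Psmb9, Tap1, Psmb8, Tap2 and the 8 protein-coding genes on each side, in chromosomal order and not to scale, with open points where the adjusted p was above 0.05. The 4 class I processing genes lie between 2.01 and 2.97, next to H2-Ob at -1.65.

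The neutrophil label was checked against 9 markers, of which Ly6g, the gene of the bead target, had no row. The mean of the 8 others was 12.80 to 13.11 in PBS and 12.47 to 13.01 in SP, and none differed 2-fold. Of these 8, Mmp8 (-0.76), Mmp9 (-0.59) and Retnlg (-0.47) were called lower in SP and 5 were not called, with a median difference of -0.27. For marker lists of other cells, median differences were -2.80 (ciliated), -1.95 (club), -1.75 (alveolar type 1) and -1.07 (alveolar type 2). They were -1.46 for endothelial cells, -1.48 for alveolar macrophages and -1.76 for B cells, so these 7 lists stood lower in SP. At least 2-fold lower were 5 of 5, 2 of 3, 4 of 5, 3 of 5, 5 of 7, 6 of 9 and 5 of 5 genes, respectively, and for each of these 7 lists the array means of the groups did not overlap. The club cell list had array means of 13.18 to 13.50 in PBS and 11.40 to 11.98 in SP. In PBS these lay above the means of the neutrophil list, although signals of different genes also reflect their probes. Means of the alveolar type 2 list were 12.07 to 12.59 in PBS and 10.20 to 11.55 in SP. The means of the alveolar macrophage list were 8.55 to 9.20 in PBS and 7.40 to 8.01 in SP, and those of the B cell list 8.10 to 9.07 and 6.03 to 7.37. Lists of fibroblasts (-0.38), dendritic cells (-0.34), monocytes and interstitial macrophages (0.13), NK cells (0.19) and T cells (0.41) had smaller medians. The monocyte list mean was 7.87 to 8.73 in PBS and 7.76 to 9.27 in SP. The part of these cells in the class I differences was not tested.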

How the data were processed

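Messenger RNA of 8 lung neutrophil samples, 4 PBS and 4 SP by their titles, was measured on 1 array each, which limits the precision. Per the study's methods, the authors made the deposited log2 values by RMA, with a correction for GC content and probe sequence, then quantile normalization and summary of the probes by median polish. Their processing notes also name Affymetrix Expression Console and Partek. Such values are relative within an array, so a change in total RNA per cell cannot be read from them. Row identifiers were matched to symbols of the RefSeq gene table (GRCm38.p6) for 19915 of 24625 rows (80.9%). The microRNA arrays were not analysed here.

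Rows were compared with limma 3.58.1 (lmFit and eBayes, R 4.3.3), two-sided, with no covariate and Benjamini-Hochberg adjustment over all rows, and were called at an adjusted p of at most 0.05. Within-array pairs were compared by exact permutation in Python 3.11.15. Both were tested on simulated data. The members and lists were chosen with earlier results of these data known. Named with values were the members, list genes called at least 2-fold, both genes of each pair, chromosomal neighbours and the 5 most similar profiles, and other genes named are additions. A few items are counted but not reported here. Alternatives were the methods' t-test, a robust prior with trend, a replicate block, array weights, 2 scalings, leaving out dim rows, limma treat and leaving out each sample.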

Additional observations from a re-analysis of the deposited data

Results flagged for a closer look

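Of 64 groups of 4 arrays tested for a single array far from the others, 7 passed Dixon's critical value at the 95% level, and chance flags about 1 in 20. Nlrc5 in PBS replicate 1 was high at 7.76 (ratio of gap to range 0.844). H2-Q5 in SP replicate 4 was low at 11.05 (0.896), and H2-T22 in PBS replicate 2 was low at 8.88 (0.916). Nfkb1 in SP replicate 3 was high at 11.94 (0.888). Psmb9 minus Psmb6 in PBS replicate 2 was low at -2.09 (0.850). In SP replicate 3, Tap1 minus Tap2 was high at 2.06 (0.938) and Nlrc5 minus Ciita was high at 5.51 (0.878).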

How the results depend on the processing

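All 9 genes stayed higher in SP under each alternative, and 8 of 9 stayed at least 2-fold and called except by limma treat, which asks for a difference significantly above 2-fold. It called 6 of 9, leaving out Psmb9 (adjusted p = 0.0518), Erap1 (0.0662) and B2m (1). The adjusted p of B2m reached 0.0488 when dim rows were left out. Over all rows, limma treat called 1572, with 660 higher and 912 lower, against 10860, 1568 and 2773 in the analysis as reported (the last pair at 2-fold). Centring each array on its median called 18255 rows, with 2375 higher and 1896 lower by 2-fold or more (44.4% lower, against 63.9% as reported). The change of Tap1 minus Tap2 ranged from 0.16 to 0.49 when single samples were left out. Of the pathway lists, 6 of 160 counts moved, of which 4 were the loss of Pdia4 at 2-fold.

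The labels do not say whether replicate numbers pair the samples. The correlations of same-numbered deviations were 0.02, 0.03, 0.35 and -0.27. They were not compared with those of differently numbered arrays, so they cannot settle this. With the replicate block, 9842 rows were called, 1558 higher and 2766 lower by 2-fold or more, and 9 members were called, 8 of them at least 2-fold. Among genes named, the block ended the call of H2-D1 (adjusted p = 0.0589) and brought H2-DMb2 past the threshold (-0.60, 0.0385).

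Uncalled genes near 0 turned sign under some settings, and the cause was not tested. With array weights, Rxrb was at 0.0318, H2-DMa at 0.24, H2-Ab1 at 0.0026, H2-Eb1 at 0.092 and H2-Eb2 at 0.0864. With centred arrays, Rxrb was at 0.23, H2-DMa at 0.00666, H2-Eb1 at 0.0015 and H2-Eb2 at 0.17. After another quantile normalization, Psmb5 was at -0.0344, Btnl1 at -0.0467, Rxrb at 0.21 and H2-Eb2 at 0.0396. With single samples left out, Rxrb lay between -0.16 and 0.053, H2-DMa between -0.54 and 0.30, H2-Eb1 between -0.43 and 0.081, and H2-Eb2 between -0.27 and 0.11. Signals close to the array background limit what can be read from dim genes such as Btnl1.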
